A study of Mus musculus with 12 samples.

Results

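Promoter Capture-C, which ligates cross-linked, DpnII-digested chromatin and pulls down with probes the products that involve selected promoters, was read here at the promoters of intracellular kinase and phosphatase signalling genes in mouse haematopoietic stem cells (HSCs). The members were taken by name. Gene symbols were taken that began with Map2k, Map3k, Map4k, Mapk, Dusp, Ptpn, Ptpr, Pik3, Inpp, Akt, Jak or Camk. Also taken were Prk, Ppp, Pde with a digit, Socs, Dgk, Rps6k, Stk and Plc with a subtype letter. Every promoter with such a symbol and a listed contact was included. This gave 87 of 3781 promoters with a listed contact, 72 of 3374 genes and 2263 of 89545 listed contacts. Each listed contact was called in fetal or adult cells, so captured promoters without any call could not be counted. Below, captured is used only for promoters with a listed contact and for their genes. Beyond that, the name rule used no measured value, although it was chosen with earlier results of these data known. The series set stem cells of the fetal liver at embryonic day 14.5 against stem cells of the bone marrow of mice aged 6 to 8 weeks, both of strain B6129SF1 and both sorted as lineage-negative, Sca1-positive, cKit-positive and CD135-negative cells. Each population had 4 libraries, 2 in each of 2 capture batches. A further 4 samples of the HPC7 line, wild type or with TCF3 knocked out, were not analysed here. Whether a library pooled several animals is not given in the sources used here.

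Every deposited capture value pools the 2 libraries of a population within a batch, and expression and bin marks come from other assays with 1 value per population. No value per library is given, so that no difference between the populations could be set against a spread between libraries, and no test was run. Intervals are exact 95% binomial intervals (Clopper-Pearson for shares, order statistics for medians) and cover counting error only. They are too narrow where neighbouring bins of a promoter were called together.

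Reversible phosphorylation carries most signals from cytokine and growth factor receptors to the nucleus. JAK kinases act directly behind cytokine receptors and are shut off by the SOCS proteins that their own signal induces. PI3-kinases make a phosphoinositide that recruits AKT, and the INPP phosphatases degrade it or its relatives. MAP kinase cascades run through stacked kinases and are ended by the dual-specificity phosphatases, while protein tyrosine and serine/threonine phosphatases reverse phosphorylation more broadly. Cyclic nucleotides, calcium and energy state act through protein kinases A, C and G, the calmodulin-dependent kinases and AMPK, with phosphodiesterases removing the cyclic nucleotides. In HSCs these routes are known to set the balance between quiescence, division and survival.

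The members were captured once each, 40 promoters of 27 genes in the first batch and 47 promoters of 45 genes in the second. By role, 9 promoters belonged to the MAP kinase cascade, 5 to dual-specificity phosphatases, 8 to protein tyrosine phosphatases, 20 to PI3-kinase, AKT and phosphoinositide enzymes, 5 to JAK and SOCS, 17 to calcium, cyclic nucleotide and protein kinase A, C and G and AMPK enzymes, 10 to serine/threonine phosphatases and their subunits, 4 to lipid second messenger enzymes and 9 to ribosomal S6 and STK kinases. The name rule also took 6 promoters of 5 genes whose products are not themselves such enzymes or their catalytic or regulatory subunits, namely Jakmip1, Mapk8ip3, Pik3ip1, Pde4dip and Prkcdbp. For 12 genes several promoters were captured. They are written as in the deposited table, with a number added to the symbol (Stk11, Stk11_1 and Stk11_2).

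Sequences from the RefSeq tables of build GRCm38.p6 are shown for 4 promoters that the results below turn on: Dusp1, which had the largest expression difference among the members, Ppp2r2d and Inpp5a, whose promoters were called in contact with each other, and Stk11, captured with 3 promoters. The tables held a promoter for 62 of the 72 genes. Each line gives the 250 bases upstream of the listed start, 5′ to 3′ on the gene's strand. For Ppp2r2d and Inpp5a, which have 2 listed starts each, the one listed first is shown. Capitals mark GATC, the site that DpnII cuts, TGACGTCA, the full cyclic AMP response element, and CCGCCC, the core of a GC box, each searched on both strands.
Dusp1: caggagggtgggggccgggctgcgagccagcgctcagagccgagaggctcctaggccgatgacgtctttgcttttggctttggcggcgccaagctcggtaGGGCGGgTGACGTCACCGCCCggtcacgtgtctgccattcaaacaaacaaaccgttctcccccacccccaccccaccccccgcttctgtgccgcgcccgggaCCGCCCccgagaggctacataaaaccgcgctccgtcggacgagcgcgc
Ppp2r2d: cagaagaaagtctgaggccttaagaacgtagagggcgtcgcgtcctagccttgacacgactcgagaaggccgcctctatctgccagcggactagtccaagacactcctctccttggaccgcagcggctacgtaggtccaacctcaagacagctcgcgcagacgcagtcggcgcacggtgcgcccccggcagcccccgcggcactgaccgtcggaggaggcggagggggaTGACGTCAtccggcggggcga
Inpp5a: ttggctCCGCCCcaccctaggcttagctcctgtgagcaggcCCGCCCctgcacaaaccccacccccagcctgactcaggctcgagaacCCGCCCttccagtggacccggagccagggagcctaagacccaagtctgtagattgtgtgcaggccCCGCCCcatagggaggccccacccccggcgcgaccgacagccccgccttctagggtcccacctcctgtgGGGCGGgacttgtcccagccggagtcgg
Stk11: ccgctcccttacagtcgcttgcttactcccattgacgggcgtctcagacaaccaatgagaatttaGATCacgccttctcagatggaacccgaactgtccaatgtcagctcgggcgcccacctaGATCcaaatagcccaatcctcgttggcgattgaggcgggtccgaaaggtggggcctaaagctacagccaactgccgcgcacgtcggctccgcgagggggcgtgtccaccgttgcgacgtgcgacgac

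The Dusp1 window held TGACGTCA once, 143 bases upstream of the start, and the GC-box letters 3 times, one of them directly adjoining the response element. The Ppp2r2d window held TGACGTCA 21 bases upstream of its start and none of the other letters. In the Inpp5a window the GC-box letters stood 5 times, and in that of Stk11 GATC stood 2 times. Over all 32851 windows of the same length, TGACGTCA occurred in 1.55%, CCGCCC in 32.7% and GATC in 41.9%. Among the members' 95 listed starts, TGACGTCA stood in 4 (genes Dusp1, Ppp2r2d and Ptpn11), CCGCCC in 52 (54.7%) and GATC in 34 (35.8%). A match is a description of the letters, and a missing match says only that these letters are not in this window. The deposited contacts are on build mm9, so that the windows could not be placed within the captured fragments.

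The kinase and phosphatase promoters made nearly equal numbers of contacts in both populations. A contact, which joins a captured promoter fragment to a distal bin of 2 kb, counts as called in a population when its deposited score is above 0. That score reads as a p-value on the −log10 scale and starts at 1.3 in the first batch and at 2 in the second. First-batch members had 754 calls in fetal and 757 in adult HSCs, and second-batch members 748 and 758. The median number of calls per member was 14 fetal and 13 adult for the first batch, where the other promoters had 11 and 10, and 11 and 13 for the second, where the others had 10 and 9. The highest number at a single promoter was 61 fetal and 65 adult calls among first-batch members and 89 and 79 among second-batch members. The lowest in a single population was 0 throughout. Promoters with 0 calls in both populations are not listed, so these medians leave them out. The median count behind a call was 14 fetal or 15 adult in the first batch and 31 in either population in the second. The batches differ in the lowest score listed and in the distances of their contacts, so that these counts are not compared between them.

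Neither population had clearly more contacts across the members, and which of them had more depended on how calls were counted. More fetal calls stood at 19 promoters of the first batch, more adult calls at 18 and equal numbers at 3. In the second the split was 20, 25 and 2. Over all captured promoters, the first batch had more fetal calls at 48.1% and more adult calls at 42.1%, and the second at 50.1% and 38.1%. Among member promoters with unequal numbers the share with more fetal calls was 51.4% (34.4 to 68.1) in the first and 44.4% (29.6 to 60.0) in the second batch. Over the other promoters it was 53.3% and 57.2% (54.7 to 59.6), which lies inside both members' intervals. The median log2 ratio of fetal over adult calls, each with 1 added, was 0 in the first batch (-0.29 to 0.21) and -0.18 in the second (-0.32 to 0.17), against 0 and 0.04 over the other promoters. With neighbouring called bins merged, the share with more fetal calls was 46.2% for first-batch members and 56.4% (22 of 39) for second-batch members, with a median log2 ratio of 0 over the latter. With 1 promoter per gene, 16 of 25 first-batch genes (64%, 42.5 to 82.0) had more fetal calls, with a median log2 ratio of 0.16.

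**Figure D1:**
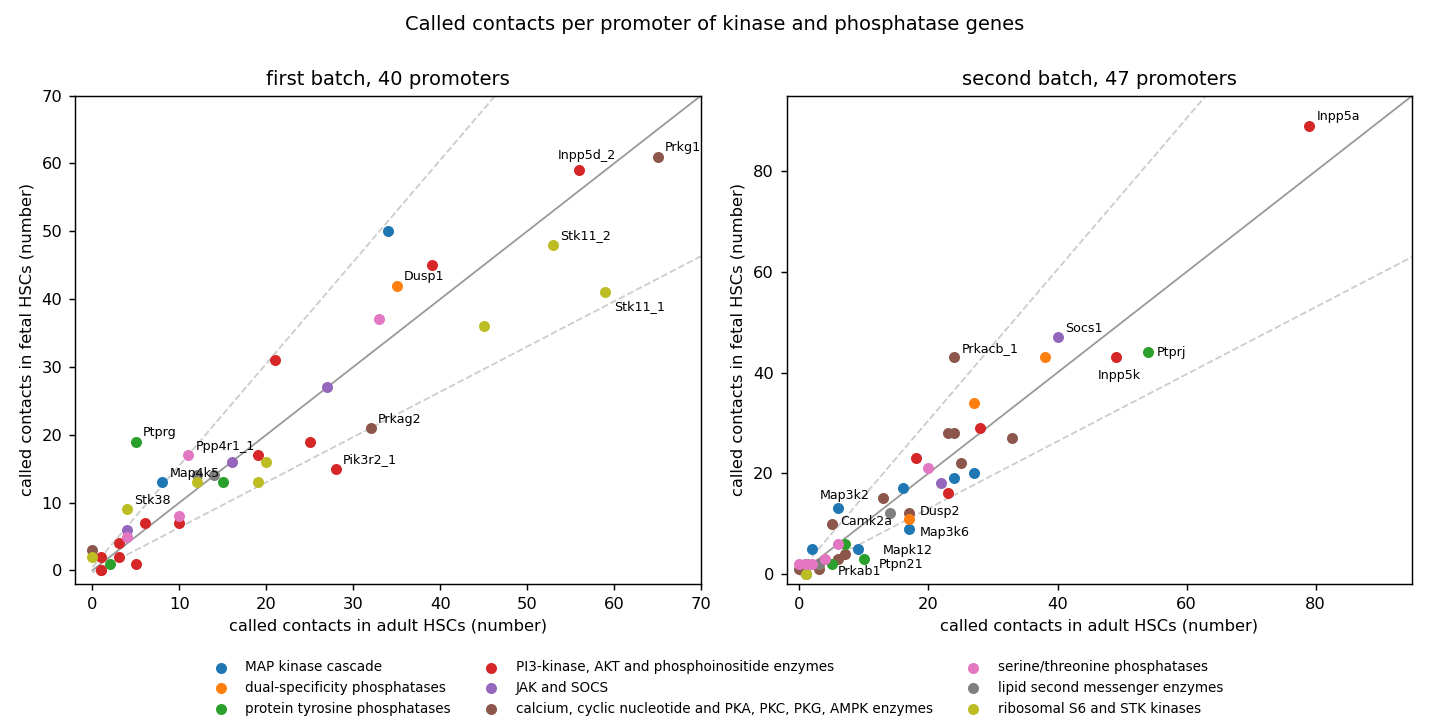
Called contacts per member promoter in fetal (vertical axis) against adult HSCs (horizontal axis), in numbers, by batch, with 1 point per promoter coloured by gene group. The solid line marks equal numbers and the dashed lines a ratio of 1.5 after adding 1, and Ptprg (19 fetal, 5 adult calls) stands farthest outside them in the first batch.

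Large differences in the number of calls were few. Of the 30 first-batch member promoters with at least 10 calls in total, 4 had at least 1.5-fold more fetal calls (background over all promoters 17.3%) and 2 at least 1.5-fold more adult calls (background 12.4%). Of the 31 such promoters in the second batch, 3 lay past that fold towards fetal (background 15.9%) and 5 towards adult cells (background 9.09%). With neighbouring called bins merged the last count was 2. With a stricter score it was 3, and the adult count of the first batch then was 5.

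The receptor phosphatase gene Ptprg had the largest excess of fetal calls, 19 against 5, with no bin called in both populations. Its fetal calls held 142 counts in all and its adult calls 48. At the stricter score its log2 ratio of calls was 3.00, against 1.74 at the deposited threshold. None of its 24 called bins carried an active promoter or enhancer mark, and expression was listed at 0.0256 FPKM in fetal and 0 in adult cells. Stk38, a kinase of the NDR family, had 9 fetal and 4 adult calls, again with none in common. Map4k5, an upstream MAP kinase, had 13 and 8, and the Ppp4r1_1 promoter, which belongs to a regulatory subunit of protein phosphatase 4, had 17 and 11. The last of these reversed at the stricter score, to a log2 ratio of -1. The other promoter of that gene, Ppp4r1, had 8 fetal and 10 adult calls.

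In the second batch the fetal excess was led by Map3k2, a MAP kinase kinase kinase, with 13 fetal and 6 adult calls, and by Camk2a, a calmodulin-dependent kinase, with 10 and 5. Prkacb_1, a promoter of the catalytic subunit beta of protein kinase A, followed with 43 and 24, 15 of them in common. The gene's other promoter, Prkacb, went the other way with 3 fetal and 6 adult calls. Inpp4b, which degrades a phosphoinositide of the AKT pathway, had 23 fetal and 18 adult calls. Of the 4 promoters named here with more fetal calls, Prkacb_1 rested on the most contacts and Camk2a on the fewest.

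Adult calls prevailed at Pik3r2_1, a promoter of a regulatory subunit of PI3-kinase, with 15 fetal and 28 adult calls, and at Prkag2, a subunit of the energy sensor AMPK, with 21 and 32. In the second batch the same side held Ptpn21 with 3 and 10 calls, Map3k6 with 9 and 17, the stress kinase gene Mapk12 with 5 and 9, and the AMPK subunit gene Prkab1 with 4 and 7. The numbers at Ptpn21, Prkab1 and Camk2a depend on how calls in adjacent bins are treated. After merging of neighbouring bins the log2 ratio turned from -1.46 to 0.58 at Ptpn21 and from -0.68 to 0.32 at Prkab1. At Camk2a it then went from 0.87 to 0, so that no fetal excess was left there.

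The promoters with the most contacts were of inositol phosphatases and of the cyclic GMP-dependent kinase. Inpp5a, which removes a phosphate from inositol trisphosphate, had 89 fetal and 79 adult calls, the most of the second batch. Prkg1, the cyclic GMP-dependent kinase, had 61 and 65, the most of the first batch. The promoter Inpp5d_2 of the phosphatase SHIP1 had 59 and 56. Socs1, the inhibitor of JAK kinases, had 47 and 40, and the receptor phosphatase gene Ptprj had 44 and 54. At the other end Akt1, Pik3ip1_1, Pde10a and Stk39 had 0 fetal and 1 adult call each, and Pde4a had 1 fetal and 0 adult calls. Prkg1_1 with 3 fetal calls and Rps6ka6 and Ppp1r12a with 2 each also had 0 adult calls.

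Many contacts were called in only one population. Both populations called 337 first-batch contacts, 44.7% of the fetal calls (41.1 to 48.3) and 44.5% of the adult calls (40.9 to 48.1). The other promoters shared 39.7% and 42.0%. The second batch had 417 in common, or 55.7% of those called in fetal (52.1 to 59.3) and 55.0% of those called in adult cells (51.4 to 58.6), where the others shared 52.2% and 56.0%. The share depended on exact bins. When a call within 5 kb in the other population counted as shared, the fetal share came to 68.8% for first-batch and 76.5% for second-batch members, and the adult share to 72.5% and 78.6%.

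Single promoters ranged widely around these shares. Ptprj shared 38 contacts, 86.4% of its fetal and 70.4% of its adult calls, and Pik3c2b, a class II PI3-kinase gene, shared 23, which was 79.3% and 82.1%. At Inpp5a 60 contacts were called in both, 67.4% of its fetal calls. By contrast Ptpn3, a tyrosine phosphatase gene, shared 2 contacts of 13 fetal and 15 adult calls, and Inpp4b shared 5 of 23 and 18. Contacts called in both populations had higher scores and counts than those called in one. Their median fetal score was 4.53 in the second batch, against 2.68 for fetal-only contacts. A missing call did not mean missing reads, since the fetal-only contacts still held a median of 14 adult counts against 25 fetal ones.

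**Figure D2:**
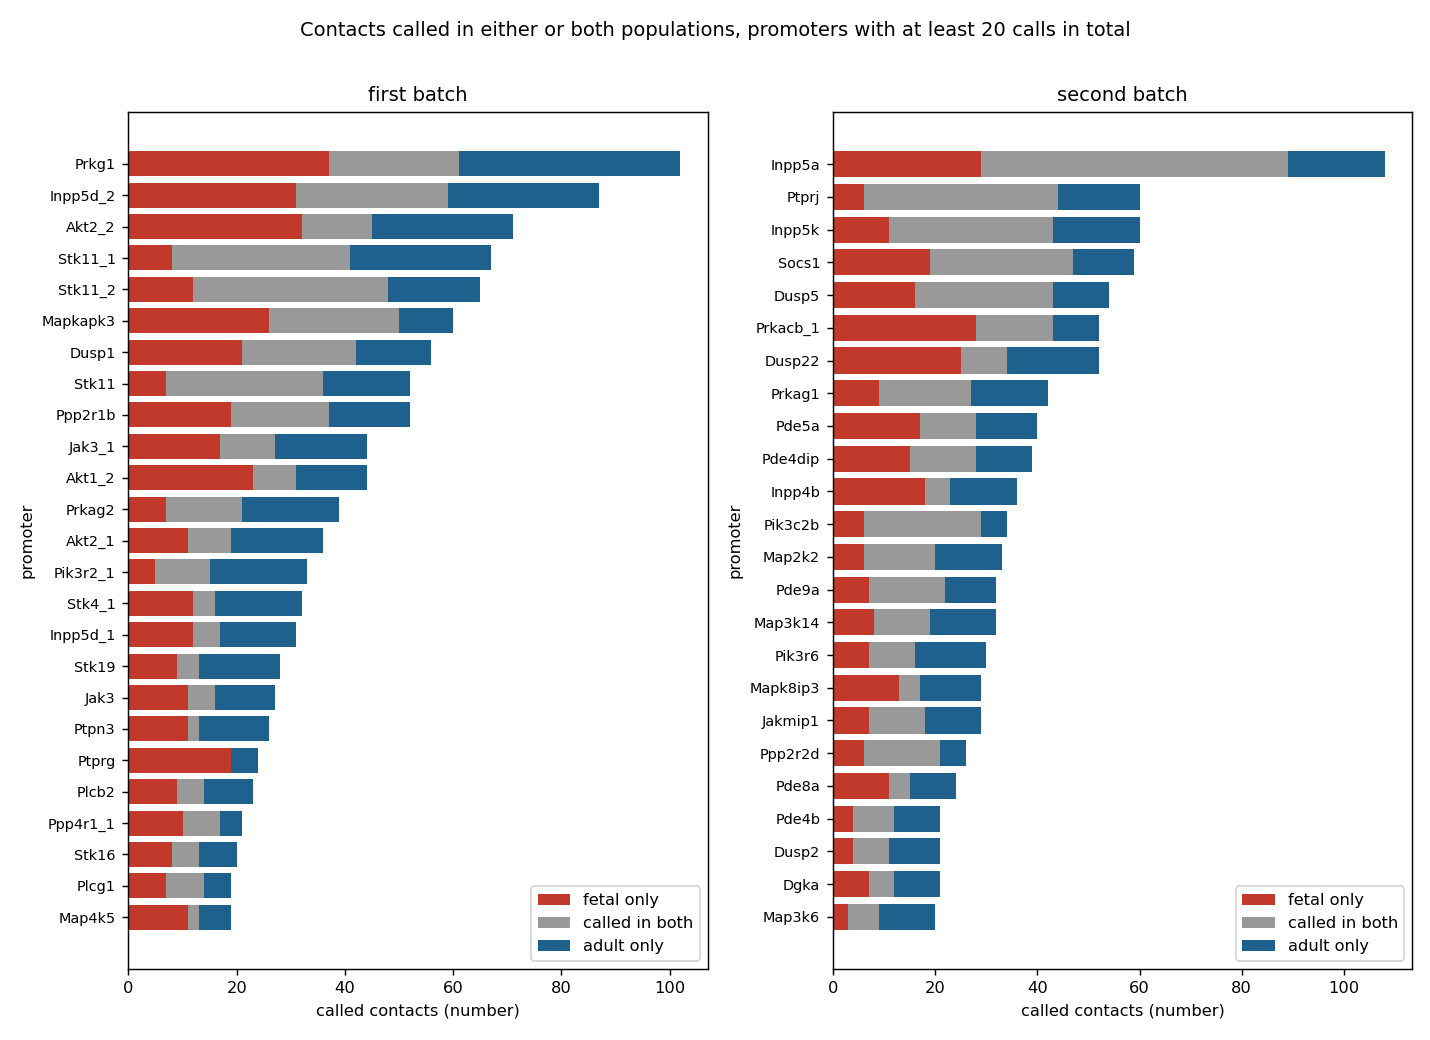
Contacts called in fetal HSCs only (red), in both populations (grey) and in adult HSCs only (blue) for the member promoters with at least 20 calls in total, by batch, with the number of contacts on the horizontal axis. Inpp5a has 29 fetal-only, 60 shared and 19 adult-only contacts, and Ptprg has no shared contact.

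Fetal contacts reached farther than adult ones at most member promoters, as at the captured promoters in general. The median distance from promoter to bin was 150 kb in fetal (144 to 157) and 124 kb in adult cells (116 to 134) for first-batch members, and 89.0 kb (85.9 to 94.9) and 69.8 kb (65.9 to 72.8) for second-batch members. The other promoters had longer medians in each case, 178 and 154 kb in the first and 102 and 78.1 kb in the second batch. Among member promoters with at least 5 calls in each population, the fetal median was the longer at 21 of 28 in the first batch (75.0%, 55.1 to 89.3) and at 28 of 29 in the second (96.6%, 82.2 to 99.9). The same held at 66.9% (64.2 to 69.5) and 84.1% (81.8 to 86.2) of the other promoters. The difference within a promoter had a median of 16.3 kb for first-batch and 9 kb for second-batch members, against 8.14 and 12 kb over the others. At Dusp22 the medians were 87.4 kb fetal and 69.4 kb adult, at Socs1 141 and 126 kb, and at Inpp5a 97.9 and 79.9 kb.

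In the second batch the marks of the distal bins differed a little between members and other promoters, at active enhancers largely through a few promoters. The deposited marks, each 0 or 1 per bin and population, name active enhancers, active promoters and open chromatin by ATAC. Enhancers active in the calling population took 16.2% of the second-batch fetal calls (13.6 to 19.0) and 17.2% of the adult ones (14.5 to 20.0), where the other promoters had 12.8% (12.4 to 13.2) and 13.6% (13.2 to 14.02). Active promoters received fewer calls than elsewhere, namely 14.8% of those in fetal (12.4 to 17.6) and 15.0% of those in adult cells (12.6 to 17.8), against 18.3% and 20.4%. For first-batch members the values were 12.6% and 15.5% at active enhancers, against 12.7% and 13.0%, and 17.5% and 20.9% at active promoters, against 15.5% and 18.2%. The first-batch intervals at active enhancers included the other promoters' values for fetal calls (10.3 to 15.2), and only just for adult calls (13.0 to 18.2). Open chromatin lay at 51.9% (fetal) and 53.2% (adult) of first-batch calls and at 52.4% and 56.3% of second-batch calls. Over the other promoters these shares were 53.0% and 54.6%, and 56.8% and 57.2%. Bins marked in fetal cells as bivalent promoters, which carry activating and repressing histone marks together, took 24 of 754 first-batch fetal calls (3.18%, 2.05 to 4.70), and bins so marked in adult cells 5 of 757 adult calls (0.66%, 0.21 to 1.53). The other first-batch promoters had 1.48% and 0.73%. At second-batch members such bins took 5 of the 748 calls made in fetal cells (0.67%, 0.22 to 1.55) and 4 of the 758 made in adult cells (0.53%, 0.14 to 1.35), where the others had 1.39% and 0.66%, so that the fetal share lay above that of the others for first-batch members only. Of the 24 first-batch calls 9 came from the 3 promoters of Stk11, at 3 different bins.

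Several promoters supplied many of the enhancer calls. Ptprj had 16 fetal and 17 adult calls at active enhancers and Socs1 had 14 and 16. Dusp5, a phosphatase of the kinase ERK, had 14 fetal and 7 adult such calls. At Pde4b, a cyclic AMP phosphodiesterase gene, 8 of 12 fetal and 12 of 17 adult calls were at active enhancers. Without Inpp5a, the promoter with the most calls, the second-batch shares were 16.2% and 17.4%. Inpp5a itself had 14 of 89 fetal and 12 of 79 adult calls at active enhancers. That is close to the members' shares, so that leaving it out could change little. Ptprj, Socs1 and Dusp5 had 44, 47 and 43 fetal and 54, 40 and 38 adult calls in all. All second-batch members together had 121 enhancer calls among 748 fetal calls and 130 among 758 adult calls. Much of the excess over the other promoters thus came from Ptprj, Socs1 and Dusp5, and it is not shown for the members in general. The share without them was not computed.

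**Figure D3:**
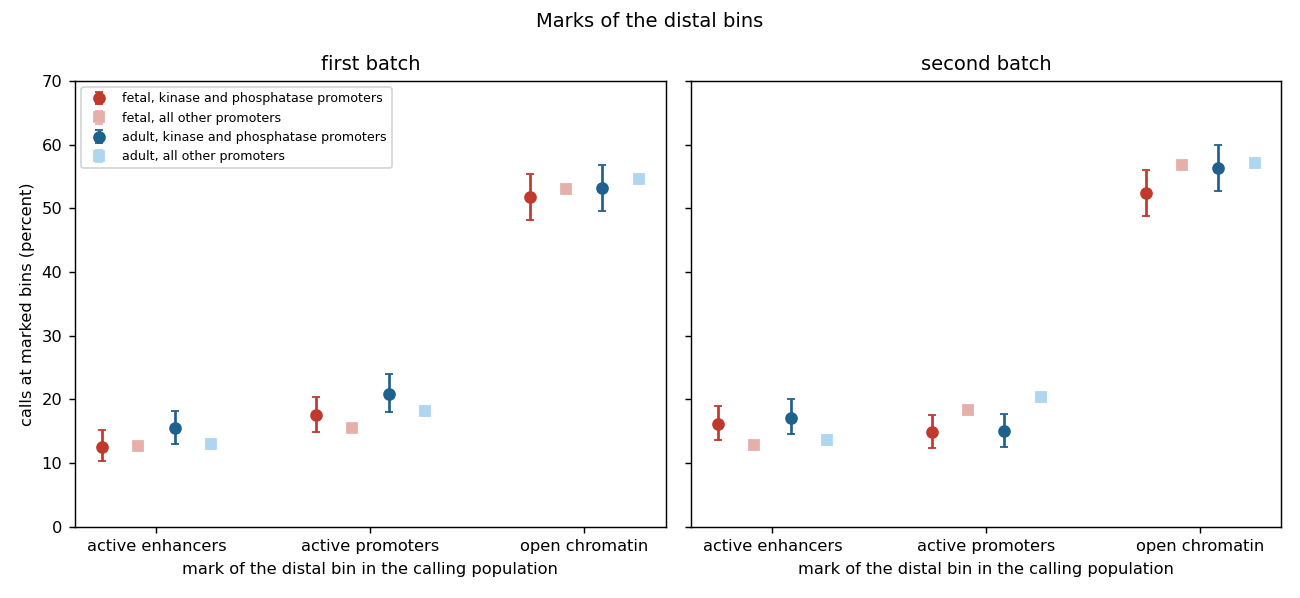
Share of called contacts (percent, vertical axis) whose distal bin carried an active enhancer, active promoter or open chromatin mark in the calling population, by batch. Circles are kinase and phosphatase promoters, squares all other promoters, bars exact 95% intervals of counting error, and in the second batch the circles at active enhancers (16.2% and 17.2%) lie above the squares (12.8% and 13.6%).

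Contacts called in a single population were also set against enhancers active in a single population. Of the first-batch contacts called in a single population at enhancers active in fetal cells only, 20 of 36 (55.6%, 38.1 to 72.1) were fetal contacts. At enhancers active in adult cells only, 7 of 19 were fetal (36.8%, 16.3 to 61.6). In the second batch the numbers were 17 of 34 (50%, 32.4 to 67.6) and 8 of 25 (32.0%, 14.9 to 53.5). The intervals overlapped in both batches. At enhancers active in both populations the fetal share was 25 of 73 (34.2%, 23.5 to 46.3) for first-batch and 22 of 56 (39.3%, 26.5 to 53.2) for second-batch members, and at bins without an active enhancer 51.5% and 51.0%. The share at fetal-only enhancers thus lay close to that at bins without one. Over the other promoters the corresponding shares were 54.8% and 43.6% in the first and 59.9% and 40.4% in the second batch.

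Among contacts called in both populations, the members' contacts were ranked by the lower of the fetal and adult scores, and the leading ones follow. Prkacb_1 contacted the bin at chr3:146162001-146164001 (mm9), which holds the captured promoter of Spata1 313 kb away, with scores of 38.9 fetal and 38.0 adult and 87 counts in either. Inpp5k, a phosphoinositide 5-phosphatase gene, contacted chr11:75546001-75548001, an open bin without promoter or enhancer mark 103 kb away, with scores of 25.2 and 24.8 and counts of 106 and 98. In the first batch Ppp2r1b, a scaffold subunit of protein phosphatase 2A, contacted an active promoter bin at chr9:50816001-50818001, 163 kb away, with scores of 26.3 and 12.8 and counts of 40 and 26. Further down the first-batch ranking, Dusp1 contacted the bin of the captured promoter A930001N09Rik 207 kb away. Its scores were 12.5 and 6.84 and its counts 30 and 21.

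Fetal-only contacts included several with a large difference in counts. The highest score was at Map3k2, 22.5, with 57 fetal and 15 adult counts, at a bin 252 kb away that was open in both populations. Socs1 contacted chr16:10668001-10670001, 117 kb away, with a fetal score of 16.4 and counts of 76 and 23, and that bin was marked open in fetal cells only. Dusp22, an activator of JNK signalling, contacted chr13:30814001-30816001, 63.4 kb away, with a score of 12.02 and counts of 55 and 11, at an enhancer active in fetal cells only. Dusp5 contacted a further fetal-only enhancer at chr19:53468001-53470001, 135 kb away, with counts of 41 and 18. Expression of Dusp22 was listed at 2.83 FPKM in fetal and 1.096 in adult cells and that of Dusp5 at 3.17 and 1.85, whereas Socs1 was at 1.07 and 2.39. Pde8a, a cyclic AMP phosphodiesterase gene, also had a fetal-only contact with a fetal-only enhancer, 115 kb away, with a score of 7.79 and counts of 37 and 17, and was at 0.346 and 1.54 FPKM. Mapkapk3, a kinase downstream of MAP kinases, had one 394 kb away with a score of 6.27 and counts of 17 and 7, and was at 10.9 and 15.4 FPKM. That bin was open in both populations and marked as an active promoter in adult cells, so that it was not active in fetal cells only. Of these 4 genes named for a fetal-only contact at a bin with a fetal-only enhancer mark, Dusp22 and Dusp5 were the higher in fetal cells. Pde8a and Mapkapk3 were the higher in adult cells.

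Adult-only contacts included one of Pde5a, a cyclic GMP phosphodiesterase gene, at chr3:122352001-122354001, 79.0 kb away, with a score of 8.84 and 10 fetal against 41 adult counts. The same promoter had a fetal-only contact with the bin of the captured Fnbp1l promoter 109 kb away, with a score of 10.3 and counts of 42 and 16. Prkacb_1 contacted the bin of the captured Syde2 promoter 825 kb away in adult cells, with a score of 8.57 and counts of 9 and 37. Prkg1 contacted an enhancer active in both populations 326 kb away, with an adult score of 9.24 and counts of 5 and 16. For Prkag1, an AMPK subunit gene, the adult-only contact with the highest score, 13.8, held 56 fetal and 72 adult counts, so that its call differed more than its counts.

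One pair of members was called in contact with each other from both sides. The Inpp5a promoter contacted chr7:146038001-146040001, the bin of the captured Ppp2r2d promoter 536 kb away, with a fetal score of 4.74 and counts of 28 fetal and 14 adult. In the reverse direction the Ppp2r2d promoter contacted chr7:146574001-146576001, the bin of the Inpp5a promoter, with a fetal score of 6.30 and counts of 26 and 16. Neither was called in adult cells. Both bins were marked as active promoters and as open in both populations. The 2 promoters also shared a contacted bin between them, chr7:146398001-146400001, which Inpp5a contacted with scores of 19.4 and 22.7. Ppp2r2d encodes a regulatory subunit of protein phosphatase 2A and was listed at 7.63 FPKM in fetal and 4.95 in adult cells, and Inpp5a at 2.12 and 3.82. The upstream sequences of both genes are printed above, with a response element at Ppp2r2d and 5 GC-box matches at the Inpp5a start shown. The other listed Inpp5a start had 0 such matches, and the windows could not be placed within the captured fragments.

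**Figure D4:**
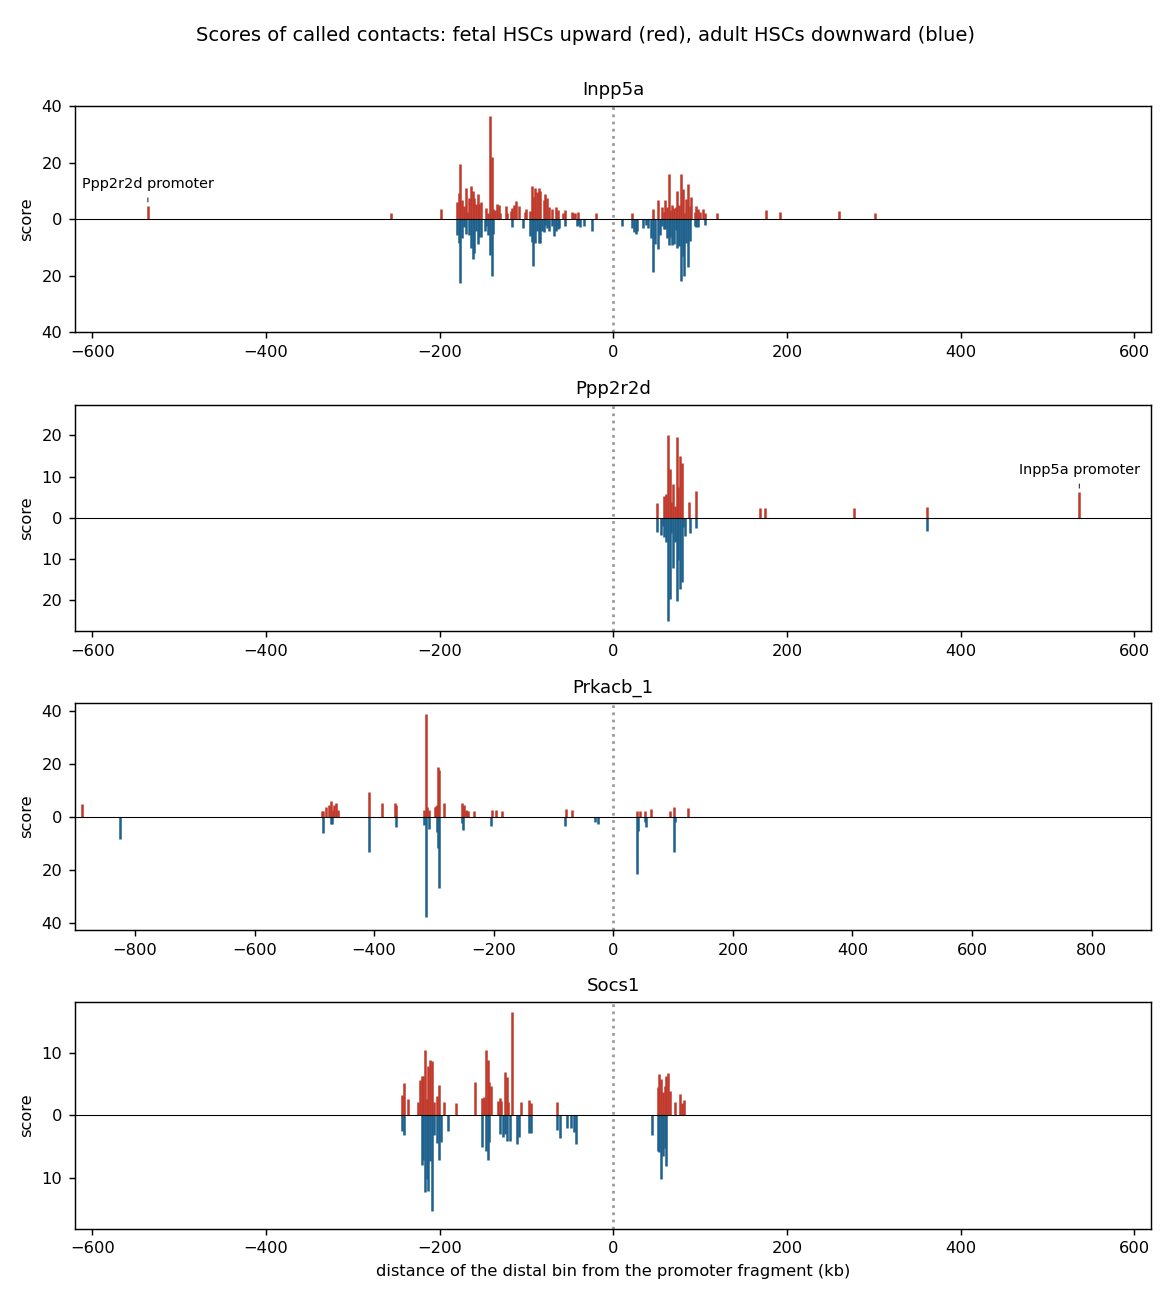
Scores of called contacts against the distance of the distal bin from the promoter fragment (kb), for Inpp5a, Ppp2r2d, Prkacb_1 and Socs1, with fetal scores drawn upward in red and adult scores downward in blue. The reciprocal Inpp5a and Ppp2r2d contacts at 536 kb appear in fetal cells only, and the Prkacb_1 contact at 313 kb has nearly equal scores of 38.9 and 38.0.

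Contacts with promoters of other captured genes numbered 56 at 24 member promoters in the first batch and 39 at 21 in the second. The same count was not made over the other promoters, so that these numbers have no background. Several promoters of one gene at the same bin are counted apart. Of the 56, 24 were called in both populations, 15 in fetal cells only and 17 in adult cells only, and of the 39, 24, 9 and 6. Stk11, the LKB1 kinase upstream of AMPK, contacted the bins of Wdr18 and Hmha1 from each of its 3 promoters, and those of Cirbp from Stk11_1. The calls differed between the promoters. At the Wdr18 bin the contact was fetal only from Stk11, adult only from Stk11_2 and called in both from Stk11_1. The Hmha1 contact of Stk11 was adult only. All 3 promoters of Pik3r2 contacted the bin of Lsm4 in both populations. The 3 promoters of Akt1 contacted the bin of Siva1, with 117 fetal and 57 adult counts from Akt1_2, although from the Akt1 promoter the contact was called in adult cells only. Prkag1 contacted Tuba1b 103 kb away with scores of 16.4 and 22.8. Dusp7, another ERK phosphatase gene, contacted Poc1a 87.9 kb away with scores of 10.7 and 35.8 but counts of 81 and 87. Stk38 contacted the bin of Cdkn1a, a cell-cycle inhibitor gene, in adult cells only, with a score of 2.65 and counts of 7 and 12.

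Promoters of one gene shared contacts to very different extents. The Stk11 and Stk11_2 fragments lie 0.044 kb apart and had 29 fetal contacts in common, 80.6% of those of Stk11 and 60.4% of those of Stk11_2, and 34 adult contacts in common (75.6% and 64.2%). The adjoining fragments of Jak3, the kinase of the common gamma chain receptors, shared 8 fetal contacts of 16 and 27 and 5 adult contacts of 16 and 27. The Ppp4r1 promoters, 55.0 kb apart, had no contact in common in either population. At Prkg1, whose promoters lie 99.7 kb apart, 61 fetal calls stood against 3 at Prkg1_1, with 1 in common.

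Between chromosomes 11 of 1174 member contacts were listed in the first batch and 1 of 1089 in the second. The other promoters had 643 of 48770 and 415 of 38512. The one with the most counts joined Akt2_2 to chr11:16414001-16416001 with 357 fetal and 23 adult counts, at an infinite fetal score and an adult score of 12.9. Ppp4r1 was joined to chr8:101668001-101670001 with 337 and 274 counts. Dusp1 had an adult-only contact with chromosome 14 that held 2 fetal and 23 adult counts.

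Expression of these genes was more often higher in adult than in fetal HSCs. The deposited table gives an FPKM value per promoter and population and marks promoters as differentially expressed. In the second batch every captured promoter carries that mark (100% of 1829). Of its 47 member promoters 33 were higher in adult cells (70.2%, 55.1 to 82.7) and 14 in fetal cells, beside a background of 54.1% and 45.9%, and 53.6% (51.3 to 56.0) of the other promoters were higher in adult cells. The median log2(FPKM + 1) difference, fetal minus adult, was -0.68 (-0.76 to -0.47) over these 47 promoters and -0.53 over the others. With 0.1 in place of 1 added it was -0.98. Of the 40 first-batch member promoters 7 carried the mark, 6 of them higher in adult cells (backgrounds 35.5% marked and 19.7% marked and higher in adult cells).

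By role the counts were small, no difference between groups was tested, and several promoters of one gene are counted (those of Ptpn21, Prkacb, Prkg1 and Pik3ip1). Over the other marked promoters, 55.2% of the first batch and 53.6% of the second were higher in adult cells. All 6 marked promoters of protein tyrosine phosphatases were higher in adult cells, as were 13 of 16 in the calcium, cyclic nucleotide and AMPK group, 6 of 8 of PI3-kinase and phosphoinositide enzymes and 5 of 7 of the MAP kinase cascade. Serine/threonine phosphatases went the other way, with 5 of 7 higher in fetal cells, and dual-specificity phosphatases were split 3 to 2. Promoters of one gene have nearly the same FPKM, and with 1 promoter per gene 31 of 45 second-batch genes (68.9%, 53.4 to 81.8) were higher in adult cells, an interval that takes in the 53.6% of the other promoters. Without the genes that are not enzymes or subunits the share was 67.4% (51.5 to 80.9), which does so too. Markers of other blood cells were captured too, and their part in these differences was not tested. Both populations were sorted as lineage-negative, and whether cells of these kinds remained was not tested. All 6 macrophage markers were higher in fetal cells, with summed FPKM of 32.9 fetal and 2.34 adult, as were all 3 captured granulocyte markers (71.2 and 5.18) and all 6 erythroid markers (69.5 and 17.05). Of 10 HSC and progenitor markers 8 had a listed contact. Their FPKM ran from 10.3 to 36.3 in fetal and from 8.94 to 62.5 in adult cells, with sums of 193 and 306. Flt3, which encodes the CD135 that the sort excluded, was marked as differentially expressed, at 6.20 FPKM in fetal and 3.81 in adult cells. In bulk samples fewer cells of a type and less RNA per cell cannot be told apart.

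Dusp1, which inactivates MAP kinases and is an immediate-early gene, was listed at 2.43 FPKM in fetal and 43.1 in adult cells, a log2(FPKM + 1) difference of -3.68. Its calls were 42 and 35, but with merged bins their log2 ratio turned from 0.26 to -0.08. Ptpn3 was at 0.0380 and 2.72 FPKM with 13 and 15 calls, and Prkg1 at 0.699 and 3.88. Dusp2, a nuclear MAP kinase phosphatase gene, was at 6.87 and 18.3 FPKM with 11 and 17 calls, whose log2 ratio went from -0.58 to 0 with merged bins. Ptpn22, a phosphatase of lymphoid signalling, was at 1.60 and 6.01 with 6 and 7. Pde10a was at 0.415 and 2.82 FPKM with a single called contact.

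Higher in fetal cells were Ppp2r1b, at 35.5 and 17.5 FPKM with 37 and 33 calls, and Pik3r6, a regulatory subunit of PI3-kinase gamma, at 1.36 and 0.0945 FPKM with 16 fetal and 23 adult calls. Camk2a was at 9.79 and 4.02 FPKM with 10 and 5 calls, and Prkab1 at 13.96 and 6.00 with 4 and 7, both differences in calls being lost or reversed with merged bins. Map2k2, the kinase directly above ERK, had the highest FPKM among the marked member promoters higher in fetal cells, 46.7 and 28.5 FPKM, with 20 and 27 calls. The direction of calls thus matched that of expression at some of these genes and not at others.

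**Figure D5:**
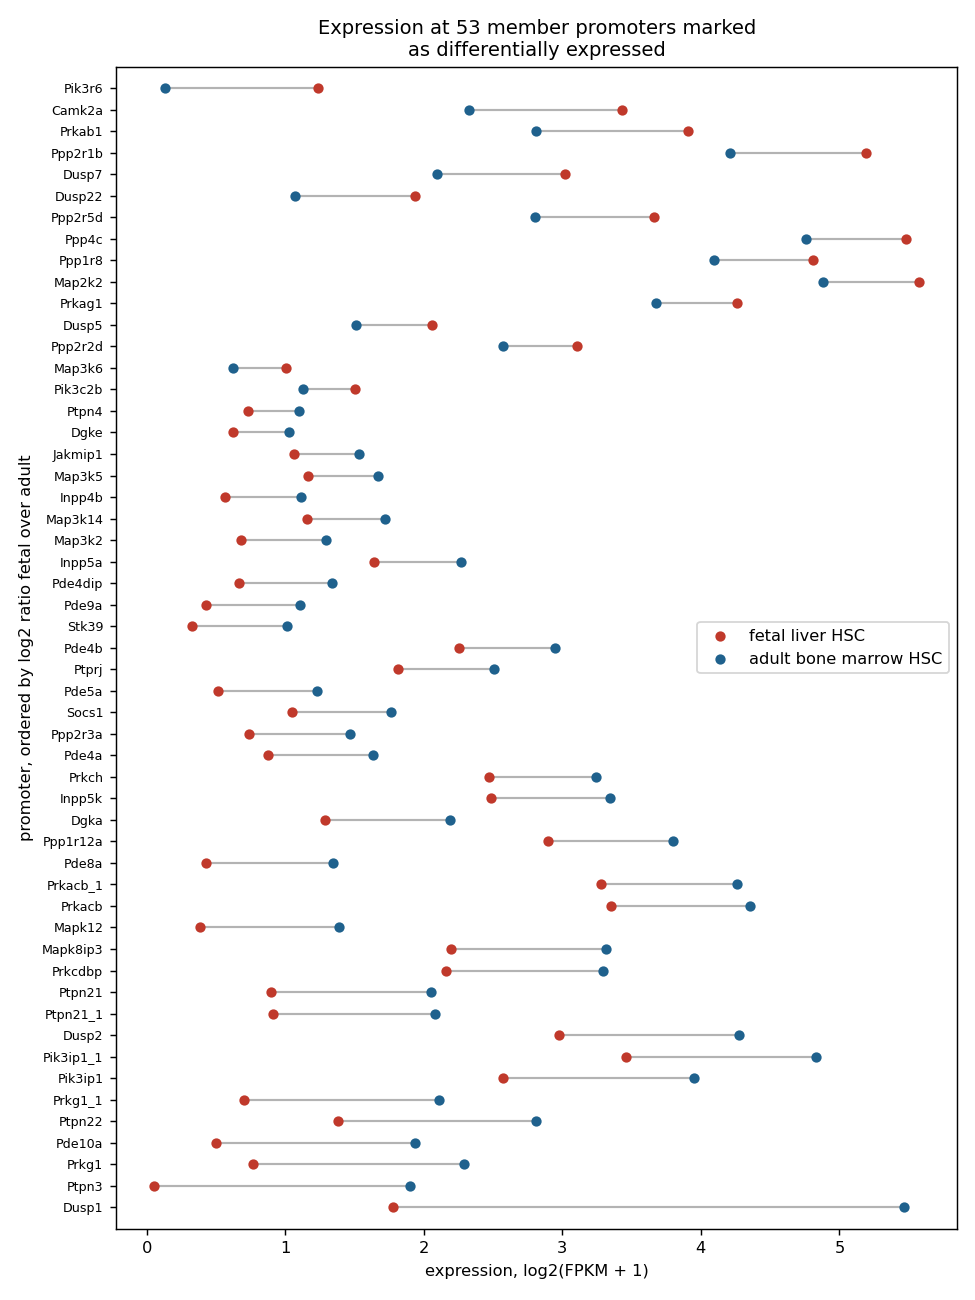
Expression as log2(FPKM + 1) in fetal (red) and adult HSCs (blue) at 53 of the 54 member promoters that the authors' deposited table marks as differentially expressed, ordered by the log2 ratio of fetal over adult. Dusp1 at the bottom has the widest gap, 2.43 against 43.1 FPKM, and 15 of the 53 promoters drawn are higher in fetal cells.

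Across the marked promoters, calls and expression pointed the same way at 25 and opposite ways at 20 in the second batch (55.6%, 40.0 to 70.4), with 2 ties, and at 5 and 2 in the first. The other second-batch promoters had 52.4% (49.9 to 54.9). Counting only calls at enhancers active in the calling population, 17 second-batch member promoters pointed the same way and 8 the opposite way (68.0%, 46.5 to 85.1), with 22 ties, beside 55.8% (52.6 to 59.0) over the others. The interval of the members includes the value of the others in both measures.

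Among the JAK, AKT and growth factor members captured, numbers of calls were equal or nearly so at several promoters and not at others. Jak3 had 16 calls in each population at one promoter and 27 in each at the other, but only 5 and 10 of these contacts were shared. The former promoter was at 16.8 and 20.8 FPKM. At Akt1_2 there were 31 fetal and 21 adult calls, with 60.7 and 59.0 FPKM. The PI3-kinase subunit gene Pik3r1 had 1 fetal and 5 adult calls at one promoter and 7 and 6 at the other. Ptpn11, which encodes the phosphatase SHP2 and relays rather than ends growth factor signals, had 1 and 2 calls and 11.96 and 12.7 FPKM. Plcg1, a phospholipase C gene, had 14 and 12 calls at 9.81 and 9.91 FPKM, but more adult calls with merged bins.

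Genes of the same pathways outside the name rule were read from a list of 60, of which 10 genes were captured in the first batch and 10 in the second. Of their 13 first-batch promoters 4 had more fetal calls, 5 more adult calls and 4 equal numbers, and of the 10 in the second batch 4, 4 and 2. Marked as differentially expressed were 5 promoters in the first batch, 2 higher in fetal and 3 in adult cells, and all 10 in the second, 2 and 8. Cish, a SOCS-family target of STAT5, was at 3.94 FPKM in fetal and 19.0 in adult cells with 20 and 26 calls. Pias1, which encodes a SUMO ligase, had 55 and 33 calls at 2.67 and 4.64 FPKM, and Sh2b3_1, a promoter of the adaptor LNK, had 30 and 23 calls at 10.5 and 5.48 FPKM.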

How the data were processed

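Per the submitters' processing notes, reads were trimmed with Trim Galore 0.41 and aligned with Bowtie2 2.2.2 to mm9. The treatment of duplicate reads and the calling settings are not given in the sources used here. The authors deposited, per contact and population, a whole-number count and a score that behaves as −log10 of a p-value, both pooled over the libraries of a batch. Whether the count is a sum is not stated. FPKM values per promoter and marks of 0 or 1 per bin were deposited by the authors from other assays. The number of value columns that belong to no population was 0. Calls, overlaps (same promoter and same bin), distances between midpoints and shares were computed per batch with Python 3.11.15, pandas 2.3.3, numpy 2.4.6 and scipy 1.17.1, and the scripts were tested on simulated data. Ratios of calls and of FPKM had 1 added to each side, which understates differences of weakly expressed genes. RefSeq tables (GRCm38.p6) served for names, where 71 of 72 member symbols matched and 72 with synonyms, and for promoter sequences.

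The named genes are, towards either population, the 4 members of at least 10 calls whose ratio of calls was largest, the 2 with the most calls, the 3 with the largest FPKM ratio in each direction, the strongest contacts and a list of well-known signalling genes, per batch. Not all selected are printed, and 1 marked member promoter is not reported here. Ptprj, Pik3c2b, Dusp5, Dusp7, Dusp22, Map2k2, Stk39, Pik3ip1_1, Pde4a, Ppp1r12a, Prkg1_1, Prkacb and the genes named for promoter-promoter contacts were added after their values were seen. The members, lists and comparisons were chosen with earlier results of these data known.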

Additional observations from a re-analysis of the deposited data

How the results depend on the processing

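No paired analysis was possible because the deposited columns are pooled per population and batch and carry no replicate number, and for the same reason no library could be left out. Of 176 values that answer a comparison, recomputed under the alternatives, 160 stayed within the exact interval of the reported value or, for a count, within 1.5 times of it. Within those bounds the share of promoters with more fetal calls still crossed 50%, from 44.4% to 56.4% in the second batch with merged bins, and from 51.4% in the first to 46.2% with merged bins, 47.2% with the stricter score or without contacts between chromosomes, and 48.6% for contacts between 20 kb and 1 Mb. The first-batch median difference in expression went from -1.41 to -2.24 with 0.1 added to FPKM. Those outside the bounds were as follows, and the cause was not tested. A minimum score of 2.3 (first batch) and 3 (second batch) gave 5 and 3 promoters with at least 1.5-fold more adult calls, active enhancers at 9.57% of fetal calls, active promoters at 24.1% of fetal and 26.4% of adult calls and open chromatin at 58.7% of fetal calls in the first batch, and for the second batch open chromatin at 58.8% (fetal) and 62.6% (adult). Merging bins up to 5 kb apart left 2 promoters past the fold towards adult cells in the second batch. Counting calls up to 5 kb apart as shared gave 68.8% and 72.5% in the first and 76.5% and 78.6% in the second batch. With 0.1 added to FPKM the median difference of the second batch was -0.98. With at least 20 calls required, a setting chosen after seeing the data, 1 promoter of the second batch was past the fold towards fetal and 2 towards adult cells. Among single promoters the log2 ratio of calls reversed to -1 at Ppp4r1_1 and to 1 at Ptpn11 with the stricter score, and to 0.32 at Prkab1 and 0.58 at Ptpn21 with merged bins. With merged bins it also moved to -0.81 at Plcg1 and to -1 at Ptprj. Added after seeing the data and within these bounds were leaving out the 5 genes that are not enzymes or subunits, the contacts between chromosomes, and the promoter with the most calls. The planned list of names that are not enzymes matched 0 members, so that its 8 values could not change, yet they count among the 160. So do the 4 values with at least 1 FPKM required, a setting that removed no marked member promoter. Promoters with few calls limit what can be read, since at 1 to 10 calls a single bin changes the ratio.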
